A study of Mus musculus with 8 samples.

Results

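The liver transcriptome of hUGT1/Atf4ΔHep mice, which lack Atf4 in hepatocytes, was compared with that of hUGT1/Atf4F/F mice after both had received triclosan (TCS). The comparison took the 4 libraries of these groups among the 8 of the series and every gene that passed a filter on low counts, 13633 of the 24411 genes in the count table. The study asked how TCS, an antimicrobial agent of personal care products that reaches newborns through milk, acts on the neonatal liver, and hepatocyte Atf4 was deleted to ask how ATF4 relates to expression of UGT1A1, the bilirubin-conjugating enzyme.

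In hUGT1/Atf4ΔHep TCS mice both floxed Atf4 alleles were deleted by a Cre recombinase under the albumin promoter, which is active in hepatocytes, so that other liver cells kept the gene. The hUGT1/Atf4F/F TCS mice carried the same floxed alleles intact. Both received 50 mg/kg TCS by oral gavage on 4 consecutive days from an age of 10 days, and the sequencing methods give the age as 14 days. The vehicle groups of both genotypes, which give values to set beside those under TCS and share in the estimate of the spread, were handled in the same way without TCS. All groups carried the human UGT1 locus in place of a disrupted mouse Ugt1 locus. Each library held the pooled RNA of 2 mice and each group had 2 libraries, so that a group stood for 4 mice and the spread between libraries is that between pools. The groups are called ΔHep TCS and F/F TCS below.

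ATF4 is the transcription factor at the end of the integrated stress response. Kinases that sense unfolded protein, heme shortage, viral RNA or missing amino acids phosphorylate the initiation factor eIF2α, general translation slows, and ATF4 protein is made from its mRNA all the same. ATF4 then binds DNA with C/EBP partners and is known to activate genes of amino acid synthesis, amino acid transport and tRNA charging, together with stress factors such as CHOP (Ddit3) and TRIB3.

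The total counts were 11624143 and 25573210 in the ΔHep TCS libraries and 16633244 and 17274020 in the F/F TCS libraries, and TMM normalization factors over the series lay between 0.9899 and 1.02. Levels are given as CPM, counts scaled to a common library size after this normalization, per library in the order replicate 1, replicate 2, and are not comparable between genes, since they are not divided by gene length. Xist, which is transcribed in females, was at 0.346 and 753 CPM in ΔHep TCS livers, against 718 and 758 CPM in F/F TCS livers. The summed level of 4 Y-linked genes was 171 and 90.6 CPM, against 92.9 and 73.8 CPM. ΔHep TCS replicate 1 was thus a pool without appreciable Xist, whereas the other 3 libraries held RNA of both sexes. F/F TCS replicate 2 stood apart in another way. A set of 28 genes, chosen after their values were seen and led by keratins and cornified envelope genes of squamous epithelium, summed to 914 CPM there and to between 4.67 and 15.9 CPM in the other 7 libraries. Krt4, a keratin of stratified epithelium, was at 0 and 3.68 CPM in ΔHep TCS livers, against 0.302 and 252 CPM in F/F TCS livers. For some results named below that leaving out either of these libraries ended or much altered, the value without it is given. Such values are not given for every result, so a result printed without one may still depend on either library.

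**Figure D1:**
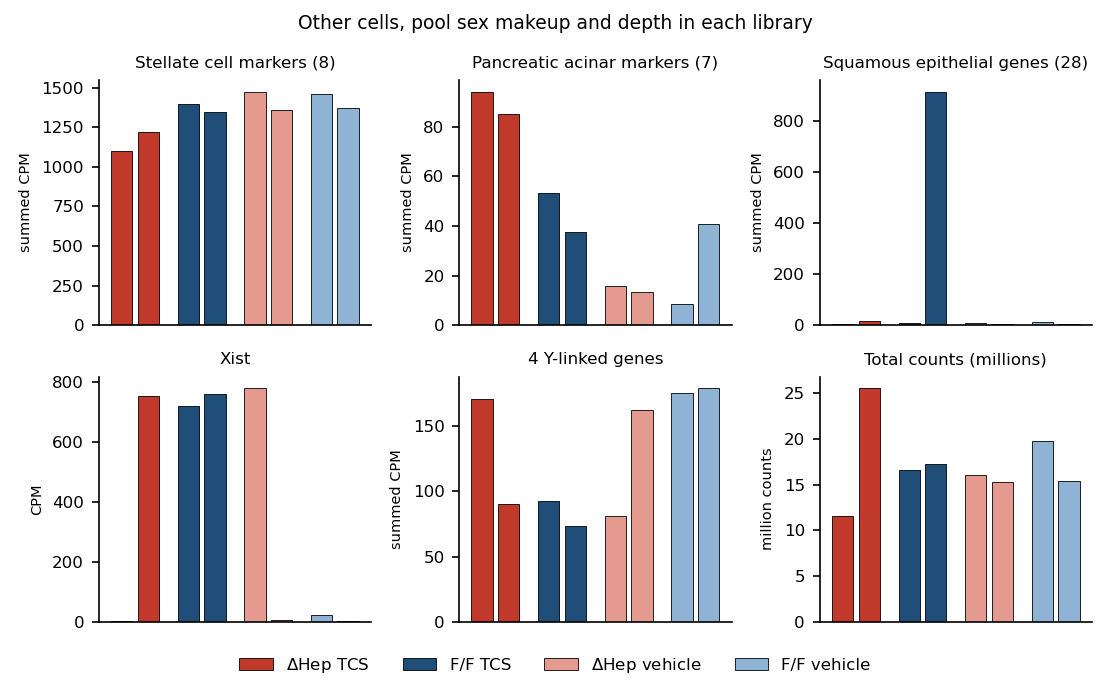
Bars give, for each of the 8 libraries, the summed CPM of stellate cell markers, pancreatic acinar markers and squamous epithelial genes, the CPM of Xist, the summed CPM of 4 Y-linked genes, and the total counts. F/F TCS replicate 2 carries nearly all of the squamous signal (914 CPM), and ΔHep TCS replicate 1 has almost no Xist (0.346 CPM).

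Atf4 itself fell in the livers of ΔHep mice. The gene was at 17.5 and 17.4 CPM in ΔHep TCS livers, against 58.6 and 59.8 CPM in F/F TCS livers. The groups were far apart, and replicates differed by little. The log2 fold change was −1.76 (SE 0.08, 95% interval −1.94 to −1.59), which leaves 29.4% of the F/F level (adjusted p = 2.71e-05 by edgeR's quasi-likelihood test with Benjamini-Hochberg adjustment, the test used throughout). In bulk liver RNA, fewer cells with Atf4 and less Atf4 RNA per cell cannot be told apart. The hepatocyte markers were present at like levels, with 8 markers summing to 140101 and 130907 CPM in ΔHep TCS livers, against 143673 and 127416 CPM in F/F TCS livers.

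Only 3 genes, or 0.022% of those tested, passed an adjusted p of 0.05, and the other 2 lie beside Atf4 on chromosome 15. Rps19bp1 (mm10 chr15:80260615-80264315), whose human counterpart encodes a regulator of the deacetylase SIRT1, lies on the opposite strand, with its nearer end, the 3′ end, 3.07 kb beyond the end of Atf4 (chr15:80255184-80257541). It was at 2.25 and 1.46 CPM in ΔHep TCS livers, against 11.8 and 10.4 CPM in F/F TCS livers, and fell by 2.65 on the log2 scale. The SE was 0.23 and the adjusted p from edgeR 0.00603. The call did not hold without ΔHep TCS replicate 2, where the value was −2.29 with an edgeR adjusted p of 0.135, nor when the 4 libraries were fitted alone (adjusted p = 0.118). Cacna1i (chr15:80287238-80398279), a T-type calcium channel gene known from neurons, was at 103 and 87.7 CPM in ΔHep TCS livers, against 0.966 and 0.343 CPM in F/F TCS livers. It is close to silent in the intact liver and rose by 7.18 on the log2 scale. The SE was 0.31 and the adjusted p from edgeR 2.71e-05. It starts 29.7 kb from the end of Atf4.

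Other genes near Atf4 were also examined. Of 16 genes tested within 500 kb of Atf4, itself included, 6 had an unadjusted p under 0.05 from edgeR, 5 of them lower. Over all genes 1.75% were lower and 1.42% higher at that level. The 6 include the called genes Atf4, Rps19bp1 and Cacna1i. Mief1, a mitochondrial fission factor whose annotation ends 1.81 kb before Atf4, was at 23.6 and 22.4 CPM in ΔHep TCS livers, against 25.2 and 28.4 CPM in F/F TCS livers (log2 fold change −0.23, unadjusted p = 0.0427). Syngr1, a synaptic vesicle protein gene, was at 0.433 and 0.307 CPM, against 1.63 and 0.801 CPM, and the ribosomal protein gene Rpl3 was at 249 and 228 CPM, against 273 and 264 CPM. These 3 did not pass the adjusted test.

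Among all genes tested, 238 (1.75%) had an unadjusted p under 0.05 with a lower value in ΔHep TCS livers and 193 (1.42%) with a higher value. Together they made 3.16% of genes, under the 5% that such a threshold lets through where no gene differs, so single genes below this level are described here as values and not as changes. Non-overlap of the 2 libraries of each group was common, with 15.3% of genes wholly lower in ΔHep TCS livers and 15.3% wholly higher. The median log2 fold change of all genes was 0.0004. DESeq2 called 7 genes (0.0513%), the 3 above and 4 others, which are described next.

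**Figure D2:**
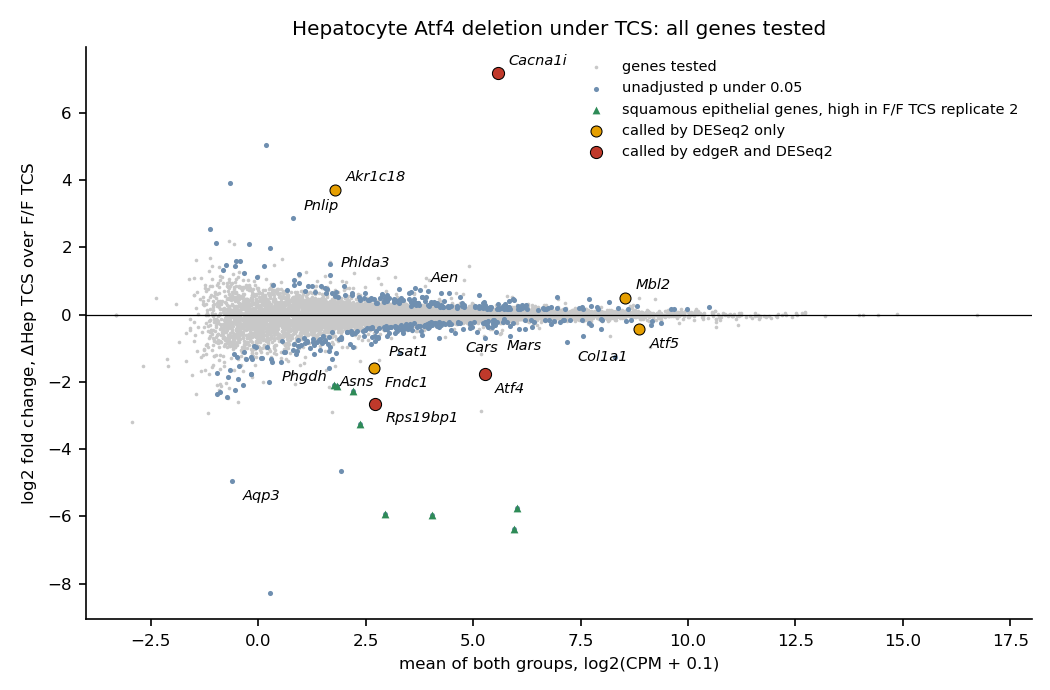
Each point is 1 of the 13633 genes tested, with the mean level of both TCS groups on the horizontal axis, as log2(CPM + 0.1), and the log2 fold change of ΔHep TCS over F/F TCS livers on the vertical axis. Cacna1i (7.18) stands alone at the top, Atf4 (−1.76) and Rps19bp1 (−2.65) are the called falls, and triangles mark squamous epithelial genes that are high in F/F TCS replicate 2.

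Atf5, a relative of Atf4 that is also translated under stress and is rich in liver, was at 399 and 393 CPM in ΔHep TCS livers, against 544 and 522 CPM in F/F TCS livers. Its log2 fold change was −0.43 (SE 0.06), with an adjusted p of 0.146 by edgeR and 6.88e-06 by DESeq2. Its value lay between −0.46 and −0.40 in the 8 fits without 1 library. Mbl2, a mannose-binding lectin that hepatocytes secrete to activate complement, was at 434 and 431 CPM in ΔHep TCS livers, against 281 and 327 CPM in F/F TCS livers (log2 fold change 0.51, SE 0.09). Its adjusted p was 0.704 by edgeR and 0.000112 by DESeq2.

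Akr1c18, an aldo-keto reductase that inactivates progesterone, was at 6.06 and 6.45 CPM in ΔHep TCS livers, against 0.664 and 0.286 CPM in F/F TCS livers. The log2 fold change was 3.71 (SE 0.49), with an adjusted p of 0.136 by edgeR and 6.74e-07 by DESeq2. Under vehicle it was also higher in ΔHep livers (1.81 and 3.90 CPM, against 0.456 and 0.263 CPM in F/F livers). Fndc1, which encodes a fibronectin domain protein, was at 2.77 and 3.45 CPM in ΔHep TCS livers, against 9.90 and 9.32 CPM in F/F TCS livers. Its log2 fold change was −1.60 (SE 0.34, adjusted p = 1 by edgeR and 0.0213 by DESeq2). For Fndc1 the genotypes overlapped under vehicle (6.48 and 3.44 CPM in ΔHep livers, against 6.39 and 3.61 CPM in F/F livers), and the interaction of genotype and treatment had an unadjusted p of 0.0092, which did not pass adjustment.

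Enzymes of asparagine and serine synthesis stood among the 10 lowest fold changes of the genes ranked by size. Asns, which makes asparagine from aspartate, was at 1.64 and 1.42 CPM in ΔHep TCS livers, against 5.80 and 3.26 CPM in F/F TCS livers. Its log2 fold change was −1.58 (95% interval −2.32 to −0.83, unadjusted p = 0.00105, adjusted p = 1 by edgeR), and its adjusted p lay between 0.262 and 1 over the alternatives tried. Both ΔHep libraries lay below both F/F libraries, and the F/F libraries differed more from each other than the ΔHep libraries did. Phgdh, the first enzyme of serine synthesis from glucose metabolites, was at 0.26 and 0.882 CPM in ΔHep TCS livers, against 1.69 and 1.72 CPM in F/F TCS livers (log2 fold change −1.41, SE 0.48). Its value was −0.94 without ΔHep TCS replicate 1 and −2.67 without ΔHep TCS replicate 2, and its unadjusted p from edgeR was 0.054 without F/F TCS replicate 2 and 0.0863 without ΔHep TCS replicate 1. Psat1, the aminotransferase that follows it in the pathway, was at 5.19 and 5.29 CPM in ΔHep TCS livers, against 8.82 and 8.01 CPM in F/F TCS livers (log2 fold change −0.68, SE 0.16). The rest of these lists stayed closer to 0. Of 19 serine, glycine and one-carbon enzymes, 9 had values below 0, 2 had an unadjusted p under 0.05 (Phgdh and Psat1), and the median log2 fold change was 0.004. Without either F/F TCS replicate 2 or ΔHep TCS replicate 1, 1 member was lower at that level. Of 13 enzymes of asparagine, proline, alanine and cysteine synthesis, Asns was the 1 member lower by that measure.

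Cytosolic aminoacyl-tRNA synthetases, which load amino acids onto tRNAs for translation, had mostly lower values. Of 20 members tested, 17 had values below 0, and 6 were lower at an unadjusted p under 0.05 and 0 higher. In 11 the 2 ΔHep TCS libraries lay below both F/F TCS libraries. Among all genes 1.75% were lower at that level, 1.42% higher, and 15.3% wholly lower. The list's median log2 fold change was −0.09, beside 0.0004 for all genes. No member passed the adjusted test by edgeR or DESeq2.

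Mars, which charges methionine tRNA, was at 37.2 and 38.6 CPM in ΔHep TCS livers, against 51.2 and 56.6 CPM in F/F TCS livers (log2 fold change −0.51, SE 0.11). Cars, for cysteine, was at 20.6 and 18.2 CPM in ΔHep TCS livers, against 30.4 and 25.9 CPM in F/F TCS livers (log2 fold change −0.54, SE 0.14). Nars, for asparagine, was at 69.7 and 73.7 CPM in ΔHep TCS livers, against 88.9 and 96.8 CPM in F/F TCS livers (log2 fold change −0.37, SE 0.08). In each of these the ΔHep libraries were close together and well under the F/F libraries. Iars, for isoleucine, was at 52.1 and 49.2 CPM, against 65.7 and 62.5 CPM. Yars, for tyrosine, was at 26.0 and 26.0 CPM in ΔHep TCS livers, against 32.5 and 35.98 CPM in F/F TCS livers, and Lars, for leucine, was at 34.4 and 36.7 CPM, against 42.7 and 41.5 CPM. The mitochondrial synthetases, separate genes for translation within mitochondria, lay the other way, since 13 of 17 had values above 0 and the median was 0.08 (the difference between the lists was not tested), with 0 members at an unadjusted p under 0.05 in either direction. Without F/F TCS replicate 2 the cytosolic list had 15 of 20 values below 0 and a median of −0.04. Without ΔHep TCS replicate 1 it had 17 values below 0 and a median of −0.11. Fewer members were lower at the unadjusted level in both fits, each of which leaves a group without a replicate.

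**Figure D3:**
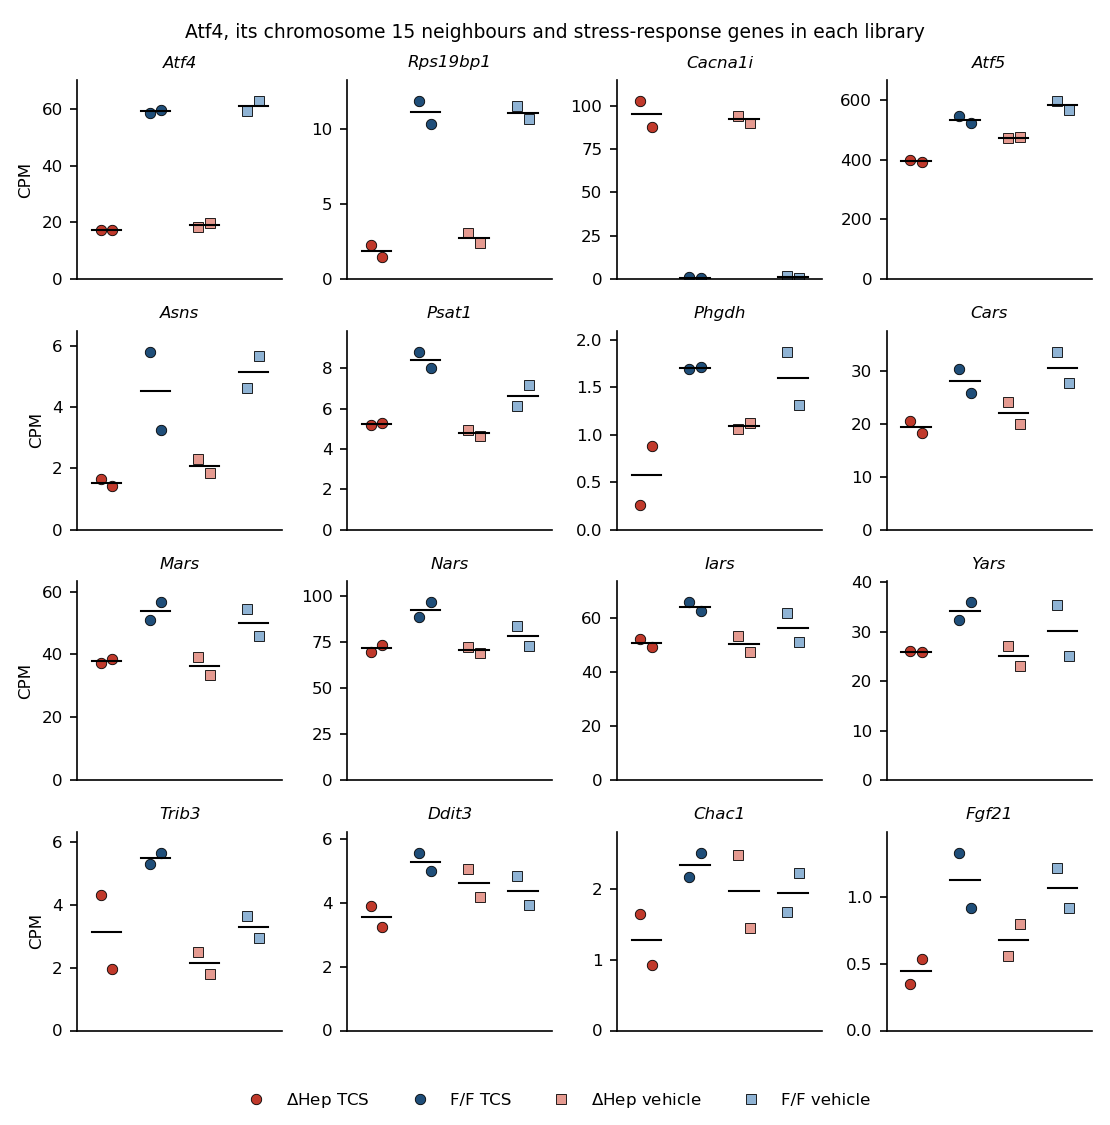
Points give the CPM of 16 genes in each library and bars the mean of each group, on axes that start at 0, for ΔHep TCS, F/F TCS, ΔHep vehicle and F/F vehicle livers. For all 16 genes the 2 ΔHep TCS libraries lie on 1 side of the 2 F/F TCS libraries, higher for Cacna1i and lower for the other 15. The 16 were picked with their values known, so this separation is not a separate result.

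Amino acid transporters, another group known to respond to ATF4, showed no member at an unadjusted p under 0.05 among 22 tested. In the list 2 did not overlap and were lower, 4 did not overlap and were higher, and the median was −0.04. For all genes the non-overlapping share was 15.3% in each direction. Slc7a11, the cystine importer, did not pass the count filter. Slc7a5, which imports large neutral amino acids, was at 4.85 and 4.57 CPM in ΔHep TCS livers, against 4.65 and 6.35 CPM in F/F TCS livers, so the groups overlapped. The median of the list was 0.05 without F/F TCS replicate 2.

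Of 28 regulators and effectors of the integrated stress response, Atf4 left out, 6 were lower at an unadjusted p under 0.05 and 0 higher. Over all genes these shares were 1.75% and 1.42%. In the list 13 did not overlap and were lower while 0 were wholly higher, beside 15.3% of all genes each way. The median of the list was −0.04. Besides Atf5, the members at that level were Ddit3, Trib3, Chac1, Cebpd and Ppp1r15b. Ddit3, which encodes the stress factor CHOP, was at 3.89 and 3.22 CPM in ΔHep TCS livers, against 5.56 and 4.98 CPM in F/F TCS livers (log2 fold change −0.58, SE 0.21). Trib3, a pseudokinase that restrains the response, was at 4.33 and 1.96 CPM, against 5.31 and 5.66 CPM (log2 fold change −0.87, SE 0.36). Chac1, which degrades glutathione, was at 1.64 and 0.921 CPM, against 2.17 and 2.52 CPM (log2 fold change −0.93, SE 0.41). For Trib3 and Chac1 the groups did not overlap, but the ΔHep libraries were far apart, with replicate 2 the lower. Ppp1r15b, a phosphatase subunit that reverses eIF2α phosphorylation, differed little, at 108 and 112 CPM, against 119 and 130 CPM. The 4 kinases that start the response, Eif2ak1 to Eif2ak4, had log2 fold changes between −0.05 and 0.11. Without F/F TCS replicate 2 the list's median was −0.12, and without ΔHep TCS replicate 1 it was −0.06. Fewer members were lower at the unadjusted level in both fits, each of which leaves a group without a replicate.

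The promoters of some of these genes hold the letters of a C/EBP-ATF response element. The window from 250 bases before to 50 bases after the gene start (RefSeq, GRCm38.p6, the mm10 assembly) was searched for TGATGNAA on both strands, with N for any base. It occurred in 5 of the 13 cytosolic synthetase genes that had a window (38.5%), in 6 of 25 stress response genes (24%), in 0 of 17 serine and one-carbon enzymes, and in 302 of the 10838 tested genes with a window (2.79%). Among genes at an unadjusted p under 0.05 it occurred in 12 of 190 lower genes (6.32%) and 4 of 159 higher genes (2.52%). The 5 synthetase genes with it were Aars, Gars, Iars, Tars and Yars. Of these, Iars and Yars are among the synthetases described above as lower, and Aars, Gars and Tars are not. A match is a description of these letters and not a shown binding site. The stretches around the match in 6 genes with lower values in ΔHep TCS livers are shown because they let the shared letters be compared, each 5′ to 3′ on the gene's strand, with the match in capitals. Where the element reads on the other strand it appears as TTNCATCA.
Asns, chr6:7693214-7693243, minus strand, match 23 bases before the start: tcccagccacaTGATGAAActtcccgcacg
Yars, chr4:129189895-129189924, plus strand, match 3 bases after the start: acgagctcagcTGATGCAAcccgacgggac
Iars, chr13:49682126-49682155, plus strand, match 7 bases after the start: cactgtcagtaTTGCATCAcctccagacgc
Trib3, chr2:152344028-152344057, minus strand, match 14 bases after the start: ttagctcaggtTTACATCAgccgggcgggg
Chac1, chr2:119351038-119351067, plus strand, match 193 bases before the start: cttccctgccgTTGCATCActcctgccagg
Fgf21, chr7:45615611-45615640, minus strand, match 139 bases before the start: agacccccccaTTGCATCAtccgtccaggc
Psat1, Phgdh, Mars and Atf5 had no match in this window.

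Among 16 hepatokines and stress hormones, 1 was lower and 1 higher at an unadjusted p under 0.05, beside 1.75% and 1.42% of all genes. Fgf21, a fasting and stress hormone of the liver, was at 0.346 and 0.537 CPM in ΔHep TCS livers, against 1.33 and 0.915 CPM in F/F TCS livers (log2 fold change −1.26, SE 0.47), values that come from between 4 and 22 counts per library. Gdf15, a stress hormone that acts on appetite, was at 7.70 and 9.63 CPM in ΔHep TCS livers, against 5.31 and 6.12 CPM in F/F TCS livers (log2 fold change 0.61, SE 0.19). These hormones therefore had values in opposite directions. Without ΔHep TCS replicate 1 Fgf21 had an unadjusted p of 0.134. Of 27 chaperones and unfolded protein response genes of the endoplasmic reticulum, 21 had values below 0 but 0 reached an unadjusted p of 0.05 in either direction, and the median was −0.04. Hspa5, the central chaperone BiP, was at 568 and 531 CPM in ΔHep TCS livers, against 545 and 588 CPM in F/F TCS livers. Without F/F TCS replicate 2, 14 of the 27 lay below 0.

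Target genes of p53, the transcription factor that halts the cell cycle or starts cell death after DNA damage and other stress, had mostly higher values. Of 32 tested, 25 had values above 0, 12 were higher at an unadjusted p under 0.05 and 0 lower, and the median log2 fold change was 0.13. In 13 both ΔHep TCS libraries lay above both F/F TCS libraries, and in 2 both lay below, beside 15.3% of all genes each way. At the unadjusted level 1.42% of all genes were higher and 1.75% lower. The median was 0.25 without F/F TCS replicate 2 and 0.24 without ΔHep TCS replicate 1. Fewer members were higher at the unadjusted level in both fits, each of which leaves a group without a replicate. No member passed the adjusted test by edgeR or DESeq2.

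Aen, an exonuclease of apoptosis, was at 15.4 and 18.2 CPM in ΔHep TCS livers, against 10.02 and 10.4 CPM in F/F TCS livers (log2 fold change 0.73, SE 0.13, unadjusted p = 0.000362, adjusted p = 0.704 by edgeR). Bax, which opens the outer mitochondrial membrane, was at 17.2 and 15.7 CPM, against 11.1 and 11.7 CPM (log2 fold change 0.52, SE 0.10, unadjusted p = 0.000651). For both genes the groups were further apart than the libraries within either group. Rps27l, a ribosomal protein paralog, was at 52.6 and 53.4 CPM in ΔHep TCS livers, against 42.8 and 42.3 CPM in F/F TCS livers. Zmat3, an RNA-binding protein, was at 11.7 and 15.8 CPM, against 9.60 and 8.29 CPM, and Ccng1, a cyclin that joins in the feedback on p53, was at 36.7 and 47.8 CPM, against 24.2 and 32.0 CPM. Genes of cell cycle arrest and of the feedback loop also lay higher. Cdkn1a, the inhibitor p21, was at 20.6 and 31.5 CPM in ΔHep TCS livers, against 16.2 and 17.3 CPM in F/F TCS livers (log2 fold change 0.66, SE 0.26), and Mdm2, the ligase that degrades p53, was at 30.2 and 29.7 CPM, against 24.6 and 26.2 CPM (log2 fold change 0.24, SE 0.09). Trp53 mRNA itself overlapped between the groups, at 34.6 and 33.9 CPM, against 37.7 and 29.9 CPM.

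Members of this list also stood among the 10 highest fold changes of the ranked genes. Phlda3, an inhibitor of AKT signalling, was at 3.29 and 5.14 CPM in ΔHep TCS livers, against 1.99 and 1.83 CPM in F/F TCS livers. Tnfrsf10b, the mouse death receptor for TRAIL, was at 1.73 and 2.76 CPM, against 0.906 and 1.32 CPM, and the X-linked receptor gene Eda2r was at 1.47 and 1.46 CPM, against 0.725 and 0.343 CPM. Trp53cor1, the lincRNA-p21 transcript that neighbours Cdkn1a, was at 1.13 and 0.882 CPM in ΔHep TCS livers, against 0 and 0.114 CPM in F/F TCS livers, or 13 and 23 counts against 0 and 2. It was not on the list. The unadjusted p of Eda2r was 0.174 without F/F TCS replicate 2, and without ΔHep TCS replicate 1 it was 0.0877. Under vehicle the list lay on the same side, with 27 of 32 values above 0, a median of 0.18, and 16 members wholly higher, 11 of which were wholly higher under TCS too (wholly higher genes made 15.3% of all genes under vehicle, and wholly lower ones 14.9%). Under vehicle Aen was at 15.9 and 15.1 CPM in ΔHep livers, against 9.43 and 7.88 CPM in F/F livers. The 2 comparisons share no library. Xist was at 778 and 4.50 CPM in ΔHep vehicle livers, against 23.2 and 1.05 CPM in F/F vehicle livers. The Y-linked genes summed to 80.7 and 163 CPM in ΔHep vehicle livers, against 175 and 179 CPM in F/F vehicle livers. Sex makeup thus differed between the genotypes in opposite directions under vehicle and under TCS. A sex makeup covariate was among the alternative fits, and the part of sex in these values was not tested further.

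**Figure D4:**
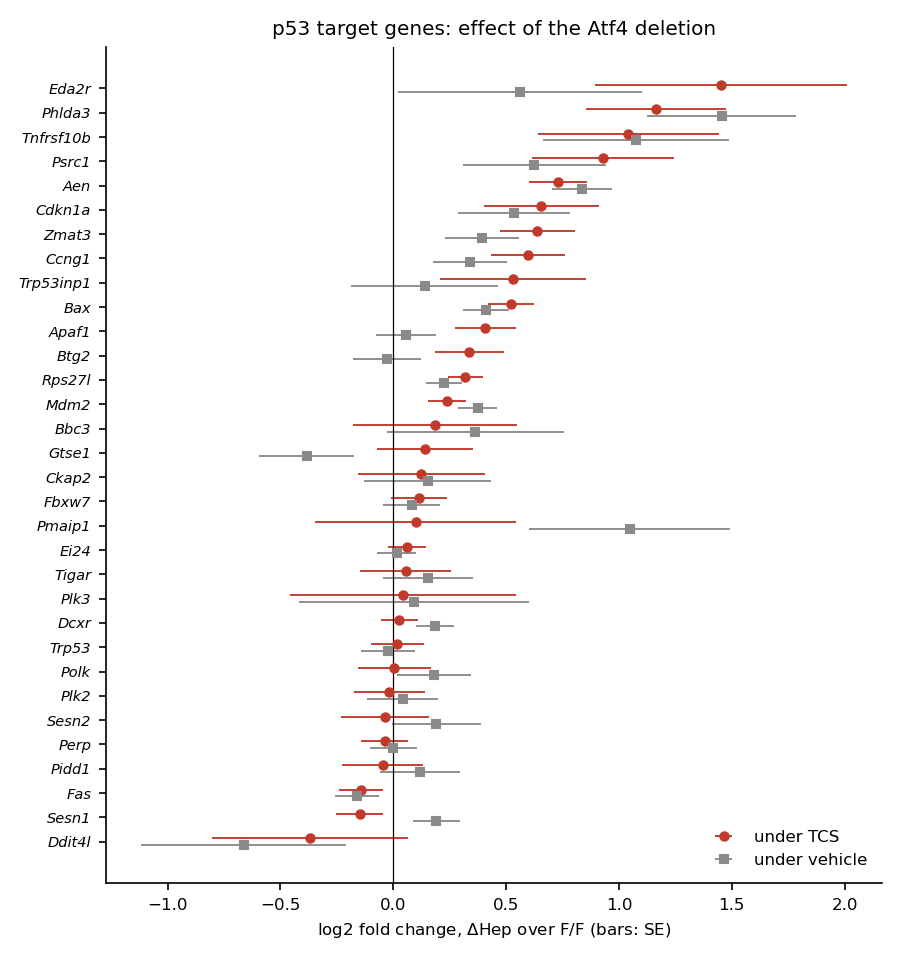
Points give the log2 fold change of ΔHep over F/F livers, with SE bars, for the 32 p53 target genes tested, under TCS (circles) and under vehicle (squares). Under TCS 25 values lie above 0, from Eda2r at 1.45 down, and Ddit4l is the lowest at −0.37.

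Genes of NRF2, the factor that drives antioxidant and conjugation enzymes, leaned to higher values. Of 36 tested, 23 had values above 0, 4 were higher at an unadjusted p under 0.05 and 0 lower, 11 were wholly higher, and the median was 0.04. All genes tested gave 1.42% higher and 1.75% lower at that level, and 15.3% wholly higher. Nqo1, a quinone reductase, was at 18.7 and 14.7 CPM in ΔHep TCS livers, against 12.7 and 12.3 CPM in F/F TCS livers (log2 fold change 0.40, SE 0.13). Ephx1, an epoxide hydrolase, was at 304 and 345 CPM, against 259 and 237 CPM (log2 fold change 0.39, SE 0.12). Gstm3, a glutathione transferase, was at 57.2 and 60.5 CPM, against 46.0 and 49.0 CPM (log2 fold change 0.31, SE 0.09), and Gstm1 was at 863 and 787 CPM, against 743 and 721 CPM. Reads of the Gstm genes may be split between near-identical copies. Without ΔHep TCS replicate 1 the list had 20 of 36 values above 0 and a median of 0.02. Nqo1 then had a log2 fold change of 0.23 and no longer reached the unadjusted level, and fewer members did. When F/F TCS replicate 2 was left out, 28 values lay above 0. Other members stayed close to their F/F levels. Gpx4, the lipid peroxidase that guards against ferroptosis, was at 135 and 125 CPM in ΔHep TCS livers, against 127 and 126 CPM in F/F TCS livers, and Prdx1 was at 960 and 942 CPM, against 921 and 882 CPM. Txn1 (102 and 98.3 CPM, against 98.6 and 106 CPM), Gsta2 (3.12 and 5.52 CPM, against 3.99 and 4.06 CPM) and Tnfrsf1a, a receptor for TNF (79.0 and 78.1 CPM, against 72.3 and 83.0 CPM), overlapped. Of 30 glutathione, peroxidase and ferroptosis genes, 2 were lower at the unadjusted level, Chac1 and the redox regulator Txnip, and 1 was higher, the glutathione synthetase Gss. None of these 3 reached that level without F/F TCS replicate 2 (unadjusted p = 0.149 for Chac1, 0.101 for Txnip and 0.193 for Gss by edgeR), nor did Txnip without ΔHep TCS replicate 1 (0.1).

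Targets of PPARα, the receptor that controls fatty acid catabolism, had values below 0 in 37 of 41 genes, with a median of −0.08, but 20 of 41 were below 0 without F/F TCS replicate 2 and 22 without ΔHep TCS replicate 1. Of the 41, 6 were wholly lower and 1 wholly higher under TCS, beside 15.3% of all genes each way. At an unadjusted p under 0.05, 2 were lower and 0 higher, beside 1.75% and 1.42% of all genes. Cyp4a32, a fatty acid hydroxylase with close paralogs, was at 29.9 and 26.4 CPM in ΔHep TCS livers, against 41.0 and 39.5 CPM in F/F TCS livers (log2 fold change −0.52, SE 0.10), and the other was Fgf21. The main hydroxylases overlapped between the groups. Cyp4a10 was at 1304 and 1534 CPM in ΔHep TCS livers, against 1478 and 2156 CPM in F/F TCS livers, and Cyp4a14 was at 1745 and 2356 CPM, against 2146 and 2947 CPM. Ehhadh, the peroxisomal bifunctional enzyme, was at 954 and 1191 CPM, against 1086 and 1302 CPM. Under vehicle 35 of the 41 targets had values below 0, with a median of −0.08. There 15 were wholly lower and 0 wholly higher, beside 14.9% and 15.3% of all genes.

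Among 26 targets of the xenobiotic receptors CAR and PXR, 1 was lower and 2 higher at the unadjusted level (1.75% and 1.42% of all genes), and the median was −0.01. The median was 0.06, with 18 values above 0, when F/F TCS replicate 2 was left out. Cyp2b10, the classical CAR target, was at 81.2 and 96.4 CPM in ΔHep TCS livers, against 83.9 and 122 CPM in F/F TCS livers (log2 fold change −0.21, 95% interval −0.60 to 0.19). Cyp3a11, a PXR target, was at 3488 and 4074 CPM, against 3657 and 4428 CPM, and Cyp2c55 was at 46.0 and 49.0 CPM, against 50.1 and 63.0 CPM. The Cyp2b10 and Cyp3a11 groups overlapped, and Cyp2c55 was wholly lower by a small margin. Of 14 mouse glucuronidation genes, 1 was higher at the unadjusted level, Ugt2a3, at 80.4 and 83.3 CPM in ΔHep TCS livers, against 61.7 and 74.0 CPM in F/F TCS livers. The median of the 14 was 0.13 without F/F TCS replicate 2, beside 0.05 with all libraries. Ugt2b35 was at 179 and 172 CPM, against 159 and 148 CPM. The count table has mouse symbols only, so the human UGT1A1 RNA of these mice was not measured here, and a share of human reads in the mouse Ugt1a counts was not tested.

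**Figure D5:**
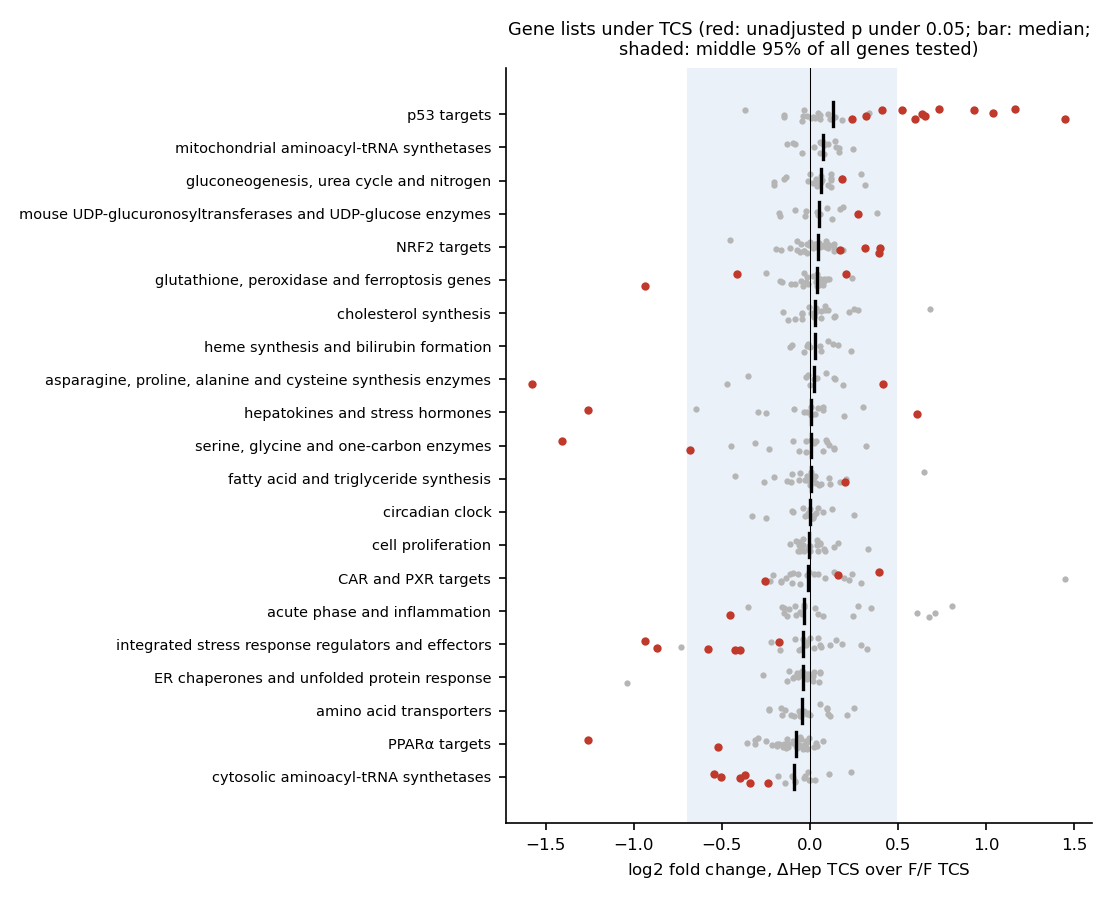
Each point is 1 tested member of a gene list, placed by its log2 fold change of ΔHep TCS over F/F TCS livers, with red for an unadjusted p under 0.05, a bar at the list's median, and shading over the middle 95% of all genes. The 21 lists drawn leave out cell markers, Xist with the Y-linked genes, and the genes near Atf4. Their medians run from −0.09 for cytosolic aminoacyl-tRNA synthetases to 0.13 for p53 targets.

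Fibrillar collagens had lower values in ΔHep TCS livers. Col1a1, the main collagen of fibrous tissue, was at 88.5 and 122 CPM in ΔHep TCS livers, against 197 and 176 CPM in F/F TCS livers (log2 fold change −0.82, SE 0.21, unadjusted p = 0.0045). Col3a1 was at 472 and 535 CPM, against 607 and 634 CPM (log2 fold change −0.30, SE 0.08, unadjusted p = 0.00635), with an unadjusted p of 0.0561 without ΔHep TCS replicate 1. Under vehicle these collagens were close between genotypes, with log2 fold changes of −0.02 and 0.03 for Col1a1 and Col3a1 and unadjusted interaction p values of 0.0273 and 0.0221, which did not pass adjustment. Both belong to the 8 markers of stellate cells, the collagen-producing cells of the liver, of which 2 were lower at the unadjusted level and 4 were wholly lower. The markers summed to 1103 and 1220 CPM in ΔHep TCS livers, against 1396 and 1348 CPM in F/F TCS livers. Of the 8 markers, 6 had values below 0 and 2 above 0, and wholly lower genes made 15.3% of all genes. Besides the collagens, Dcn and Pdgfrb were wholly lower, with log2 fold changes of −0.14 and −0.12. The groups overlapped for Lrat, which stores retinol, at 34.9 and 37.7 CPM, against 36.1 and 35.98 CPM. They also overlapped for Reln, at 287 and 268 CPM, against 299 and 234 CPM. The share of stellate cells and the RNA of each cannot be told apart here.

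Markers of some other cells differed in level between the groups, none past the adjusted test by edgeR. All 7 pancreatic acinar markers were wholly higher in ΔHep TCS livers, 2 of them at an unadjusted p under 0.05, with a summed level of 94.2 and 85.3 CPM, against 53.2 and 37.4 CPM in F/F TCS livers. These 2 were Pnlip, the pancreatic lipase, at 1.30 and 4.49 CPM, against 0.181 and 0.629 CPM, and Cela1, at 14.9 and 13.6 CPM, against 9.54 and 8.12 CPM. The trypsinogen gene Try4, which was not on the marker list, was at 4.50 and 4.68 CPM, against 1.21 and 2.00 CPM. Under vehicle the summed acinar level was 15.6 and 13.2 CPM in ΔHep livers, against 8.57 and 40.9 CPM in F/F livers, so that the groups overlapped there. The 3 erythroid markers tested summed to 35.4 and 34.3 CPM in ΔHep TCS livers, against 47.7 and 44.3 CPM in F/F TCS livers, with Slc4a1, the anion exchanger of red cells, at 2.25 and 2.00 CPM, against 3.87 and 3.20 CPM. Kupffer cell markers overlapped in all 8 genes, and 3 of 7 markers of sinusoidal endothelium were wholly lower. Wholly lower and wholly higher genes each made 15.3% of all genes. The part of these cells in the values of other genes was not tested.

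The ranking by size of change put low genes first. Genes entered it at an unadjusted p under 0.05 without overlap, if the group with more had a mean of 1 CPM or above, which left 208 lower and 164 higher genes. Besides Asns, Phgdh and Syngr1, the 10 lowest fold changes were those of Aqp3, Ano9, Sfn, Rbp2, Col4a6, Pdgfrl and Efs. Aqp3, a glycerol and water channel of epithelia, was at 0.0865 and 0 CPM in ΔHep TCS livers, against 0.181 and 1.94 CPM in F/F TCS livers. Sfn, an epithelial 14-3-3 protein, was at 1.04 and 1.42 CPM, against 1.45 and 9.27 CPM, and Rbp2, a retinol-binding protein of the gut, was at 0.346 and 0.499 CPM, against 0.845 and 2.69 CPM. In these 3 the high value is that of F/F TCS replicate 2, the library with squamous genes, and without it their log2 fold changes were −2.43, −0.21 and −0.94 with unadjusted p values of 0.302, 0.676 and 0.249. Without it Efs had a log2 fold change of −0.76 (unadjusted p = 0.295), whereas Ano9 stayed near its value, at −1.83 (unadjusted p = 0.135). Col4a6, a basement membrane collagen, was also lower without that library (log2 fold change −1.47), and was at 0.519 and 0.882 CPM in ΔHep TCS livers, against 2.05 and 1.89 CPM in F/F TCS livers, and Pdgfrl, a PDGF receptor-like gene, was at 0.519 and 0.729 CPM, against 2.23 and 1.03 CPM.

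Among the 10 highest fold changes, the genes not yet named were Chil4, Xlr4a, Egfem1 and Tlr9. Chil4, a chitinase-like protein of macrophages and epithelia, was at 0.519 and 3.49 CPM in ΔHep TCS livers, against 0.0604 and 0.0572 CPM in F/F TCS livers, where each library had 1 count. Under vehicle Chil4 was at 1.74 and 2.91 CPM in ΔHep livers, against 4.36 and 0.788 CPM in F/F livers, so that its level varied between pools of either genotype. Egfem1, which encodes an EGF-domain membrane protein, was at 1.99 and 1.57 CPM in ΔHep TCS livers, against 0.664 and 0.229 CPM in F/F TCS livers, and the DNA sensor Tlr9 was at 1.13 and 1.30 CPM, against 0.483 and 0.629 CPM. Xlr4a, an X-linked gene, was at 0.692 and 1.76 CPM, against 0.483 and 0.114 CPM, with an unadjusted p of 0.194 without F/F TCS replicate 2.

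Other lists stayed near the background with all libraries, though some medians moved when a library was left out. Of 25 proliferation genes, 0 had an unadjusted p under 0.05, and Mki67 was at 123 and 109 CPM in ΔHep TCS livers, against 148 and 84.2 CPM in F/F TCS livers. The F/F libraries differed most here, and without F/F TCS replicate 2 the list had 24 of 25 values below 0 and a median of −0.28. Of 23 acute phase and inflammation genes, 1 was lower, Socs3, the inhibitor of cytokine signalling, at 8.83 and 8.56 CPM in ΔHep TCS livers, against 10.4 and 13.4 CPM in F/F TCS livers. Socs3 had, without F/F TCS replicate 2, a log2 fold change of −0.26 and did not reach the unadjusted level, and the list had a median of 0.11. Of 22 genes of gluconeogenesis and the urea cycle, 17 had values above 0 and 1 was higher, Arg1, the last enzyme of the urea cycle, at 1059 and 1063 CPM, against 862 and 1011 CPM. Of 26 lipid synthesis genes 1 was higher, Acly, which makes cytosolic acetyl-CoA, at 109 and 121 CPM, against 103 and 97.2 CPM. Without ΔHep TCS replicate 1 Arg1 had an unadjusted p of 0.105, and without F/F TCS replicate 2 Acly had one of 0.105. Of 24 cholesterol synthesis genes, 12 heme genes and 17 clock genes, 0 had an unadjusted p under 0.05. With all libraries 17 of the 24 cholesterol genes had values above 0, and their median was 0.03. This median was 0.13 without F/F TCS replicate 2 and 0.15 without ΔHep TCS replicate 1, with 20 values above 0 in each.

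Under vehicle the same genes passed the test, although Rps19bp1 did so in 2 of the 8 fits without 1 library. Atf4 was at 18.5 and 19.7 CPM in ΔHep vehicle livers, against 59.5 and 62.8 CPM in F/F vehicle livers, and the 3 genes called by edgeR were the same 3 (adjusted p between 4.2e-05 and 0.0356). For Atf4 the difference between the log2 fold changes under TCS and vehicle was −0.09 (95% interval −0.33 to 0.15). No gene passed the adjusted test of the interaction of genotype and treatment, with 0 called by edgeR (282 at an unadjusted p under 0.05, smallest adjusted p 0.9999) and 0 by DESeq2 (93). Whether a gene that differed under TCS alone depends on TCS was therefore not shown for any single gene. Asns was at 2.31 and 1.85 CPM in ΔHep vehicle livers, against 4.61 and 5.65 CPM in F/F vehicle livers, and Cars and Mars were also lower under vehicle (log2 fold changes of −0.48 and −0.46). Ddit3 and Chac1 had values near 0 there, 0.07 and 0.03, with unadjusted interaction p values of 0.0602 and 0.126.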

How the data were processed

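Stranded mRNA libraries, 8 in all and 2 per group, were made from liver RNA pooled over 2 mice. According to the submitters' processing notes, bcl2fastq 2.20 and STAR 2.7.9a were run against mm10. For the read counter and gene annotation, a name is not given in the sources used. The deposited counts are whole numbers per gene symbol and were used as deposited by the authors. Scaled counts and 3 tables of the authors' comparisons (fold changes and p values) were not used.

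Genes passed filterByExpr (count minimum 10, total 15). Counts were TMM-normalized and fitted by edgeR 4.0.16 (quasi-likelihood test, R 4.3.3) with 1 mean per group over all 8 libraries (4 residual degrees of freedom, common dispersion 0.0142). P values were two-sided and adjusted by Benjamini-Hochberg over 13633 genes; SE is the log2 fold change over the root of F. The study drew on at least 2 litters, but the litters of each pool are not given here, so p values measure the spread between pools. Libraries of 1 group differed by more than counting noise (chi-square per gene 7.83 to 17.7), so each counted as 1 sample. Depth was 11624143 to 25573210 counts per TCS library, and with 2 libraries per group the replicate spread also limits precision. Coordinates are from GENCODE M21 (13164 symbols matched). Figures used matplotlib 3.10.9.

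The gene lists, markers and naming rule were chosen with earlier results of these data known. Named were all genes called by edgeR or DESeq2 1.42.0; the 10 lowest and 10 highest fold changes among others with an unadjusted p under 0.05, at least 1 CPM and no overlap, predicted, Y-linked genes and Xist left out; up to 4 members per list; and genes the study names. Further members named beside these were chosen after their values were seen. Alternatives were a replicate block, RLE factors, no filter, the 4 libraries alone, an adjusted p of 0.01, DESeq2, a sex makeup covariate, and each library left out; list counts without 2 libraries were added after seeing the data. The fit was tested on simulated data. A gene withheld from the text is not reported here.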

Additional observations from a re-analysis of the deposited data

How the results depend on the processing

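The count of 3 genes called under TCS stayed between 2 and 3 with the replicate block (3), RLE factors (3), the 4 libraries alone (2), an adjusted p of 0.01 (3) and the sex makeup covariate (3). It was 5 with no filter and 7 with DESeq2, which each included the same 3. Without 1 library it ranged from 2 to 31, and the 31, without F/F TCS replicate 1, were the 3 and the 28 genes, led by squamous epithelial keratins, that are high in the remaining F/F library. Under vehicle the count of 3 was 5 with DESeq2 and 5 with the covariate, of which 2 were shared (Atf4 and Cacna1i) and 3 had extreme fitted values, from −133 for Akp3 to −17.1 for Eef1a2, and it was 2 to 3 without 1 library. The interaction count of 0 became 1 with the covariate, Krt13, a keratin of the same squamous set, and was 0 without any 1 library. Atf4 under TCS kept its call in all 15 alternatives, at −1.78 to −1.75 without 1 library. Replicate numbers were shared across groups without a stated pairing (the ΔHep and F/F TCS deviations correlated at 0.373), and the replicate block changed no call.

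Of 1078 values of 72 other named genes, 8 changed sign, all of genes without a call. With 1 library left out, the ranges were −0.448 to 0.0843 for Cyp2b10, −0.226 to 0.0474 for Cyp3a11, −0.0162 to 0.098 for Gpx4, −0.37 to 0.458 for Gsta2, −0.0784 to 0.118 for Tnfrsf1a and −0.0816 to 0.0196 for Txn1. Ehhadh was at 0.00171 with the covariate. List medians changed sign in 41 of 429 refits; the causes were not tested. Fgf21 rests on between 4 and 22 counts per TCS library, and counting error and replicate spread were not separated for such genes.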
